A study of Vitis vinifera with 204 samples.

Results

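The interval between the last green sampling and veraison of 2012 was described in 12 RNA-seq libraries, chosen by their labels from a grape ripening series with 3 libraries for each of 68 combinations of season, sampling day and thinning. They hold pericarp, the skin and flesh, of Cabernet Sauvignon berries (Vitis vinifera) picked 9 days before veraison (day -9, 6 libraries) and at veraison (day 0, 6 libraries). On each day 3 libraries came from vines thinned by 50% of the crop load and 3 from vines thinned by 75%, in which young clusters had been cut away after fruit set. All vines were of clone FPS 8 on 5C rootstock in a vineyard near Modesto, California, and unthinned vines were not analysed here. Each library was made from a pool of 60 berries taken from 6 clusters, ground with the seeds removed, so it averages berries that may differ in stage. The labels do not say which of the 3 vineyard rows of a treatment each replicate came from, so p-values measure the spread between these pools. A lower level in such a pool can come from fewer cells of a type or from less RNA per cell, which cannot be told apart.

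Veraison is the onset of ripening in grapes. A hard, green, acidic berry softens, begins to import sugar and, in red cultivars, turns colour as anthocyanins build up in the skin, while chlorophyll and malic acid decline. Berries of the same cluster do not pass this stage on the same day.

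The table lists expression as RPKM, read numbers scaled to gene length and to the mapped reads of the library, for 29971 gene IDs, of which 20770 were tested. RPKM summed to between 866148 and 973408 in the 12 libraries, and the depth in reads is unknown. None of the IDs could be paired with a gene name, so genes are given by ID without a function, and neither seed markers nor pathway lists could be applied. No pair of the 12 libraries held the same values, the highest Spearman correlation across genes being 0.982. Between 4 and 15 values per library were listed at 0 while both replicates held at least 5 RPKM, and genes with such a 0 are not used as examples unless this is said.

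Sugar rose steeply over the interval. The labels give 0.75, 1.78 and 1.72 g/100 ml for replicates 1 to 3 of the 50% arm on day -9, and 1.37, 0.94 and 0.87 g/100 ml for those of the 75% arm. On day 0 they give 7.12, 7.09 and 7.00 g/100 ml in the 50% arm and 6.43, 10.33 and 7.45 g/100 ml in the 75% arm. The pools of the later day were all far above those of the earlier day, and the 75% pool at 10.33 g/100 ml stood apart from the other day 0 pools. Mean sugar was 1.24 ± 0.449 g/100 ml on day -9 and 7.57 ± 1.39 g/100 ml on day 0 (SD, n = 6 each). The difference of 6.33 g/100 ml had an exact two-sided permutation p of 0.00216, the smallest that 6 against 6 libraries can give. Mean sugar had been 0.478 g/100 ml on day -28 and reached 15.1 g/100 ml on day 11.

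A ripening score placed each library along the transition. It is the mean log2(RPKM + 1) of the 200 genes that rose most in ripening minus that of the 200 that fell most, chosen in the 2013 and 2014 seasons, so that no 2012 library took part in the choice. On day -9 the score was -2.74, -0.75 and 0.13 in replicates 1 to 3 of the 50% arm, and -1.63, -0.69 and -2.64 in those of the 75% arm. By this score replicates 2 and 3 of the 50% arm and replicate 2 of the 75% arm were the most advanced of the green pools. For replicate 2 of the 50% arm this came from the rising genes, with a mean of 4.59. Its falling genes had a mean of 5.34, near the 5.39 of replicate 1 of that arm and the 5.37 of replicate 3 of the 75% arm. On day 0 the score was 4.18, 1.80 and 3.64 in the 50% arm and 3.34, 4.42 and 3.28 in the 75% arm. Replicate 2 of the 50% arm was the least advanced pool of that day, although its sugar of 7.09 g/100 ml lay between those of its replicates. The days did not overlap, and the mean score rose from -1.39 ± 1.16 to 3.44 ± 0.925 (SD, n = 6 each), a difference of 4.83 with an exact permutation p of 0.00216.

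The green pools of day -9 were less alike than pools of any neighbouring day in this score. Its SD over 6 libraries was 0.13 on day -28, 0.36 on day -18, 1.16 on day -9, 0.92 on day 0, 0.20 on day 11 and 0.11 on day 21. Score and sugar of the 6 pools of a day were not shown to be related. On day -9 Pearson's r was 0.756 (exact permutation p = 0.119, adjusted over 4 correlations 0.272) and Spearman's rho 0.714 (exact permutation p = 0.136, adjusted 0.272), and without the 2 pools farthest from the median sugar r was 0.426 and rho 0.8. On day 0 r was 0.492 (exact permutation p = 0.283, adjusted 0.377) and rho 0.371 (exact permutation p = 0.497, adjusted 0.497), and without the 2 farthest pools r was 0.0185 and rho 0.

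**Figure D1:**
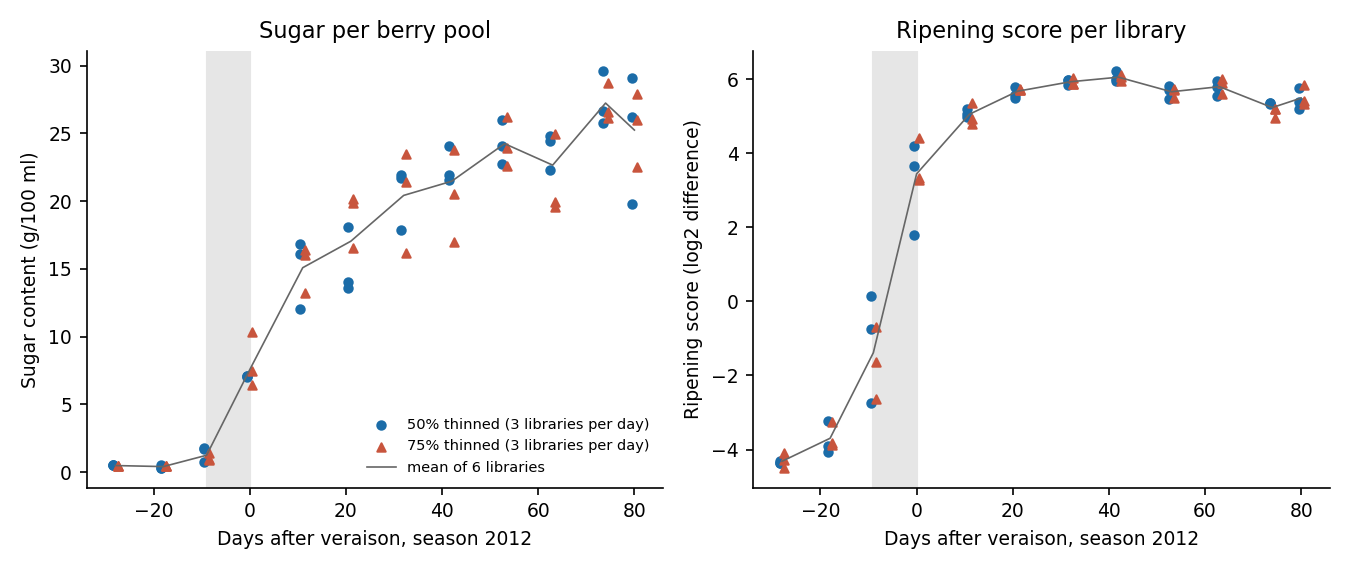
Sugar content in g/100 ml (left) and ripening score (right) against days after veraison for every 2012 library; circles are the 50% arm, triangles the 75% arm, the line is the mean of 6 libraries and the grey band is the interval from day -9 to day 0. Sugar lies between 0.75 and 1.78 g/100 ml on day -9 and between 6.43 and 10.33 g/100 ml on day 0, and the score of single pools spreads from -2.74 to 0.13 on day -9.

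Far more genes fell than rose over the 9 days. Relative to day -9, 663 genes were at least 2-fold higher on day 0 at a limma adjusted p under 0.05, which is 3.19% of the 20770 tested. In the other direction 2232 genes, 10.7%, fell by at least 2-fold at the same threshold. At any size of change the calls covered 3477 genes that rose, 16.7%, and 9958 that fell, 47.9%. Genes that rose had a median log2 change of 1.49 and genes that fell one of -1.40, against -0.19 for all tested genes. Changes of at least 4-fold numbered 166 rises and 401 falls, and those of at least 16-fold 21 rises and 10 falls. The split between rises and falls depended on scaling, since RPKM are shares of a total. Rises made up 22.9% of the calls as deposited, 36.6% (909 rose and 1576 fell) after median ratio scaling and 42.8% (1016 rose and 1359 fell) after quantile normalization. The median change of all genes moved from -0.19 to -0.03 and 0.03 under these scalings.

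The libraries of both days were separate for most of the called genes. All 6 libraries of day 0 lay above all 6 of day -9 in 504 of the 663 genes that rose, 76.0%, where 1816 of all tested genes, 8.74%, had that order. All 6 lay below in 2077 of the 2232 genes that fell, 93.1%, where 6291 of all tested genes, 30.3%, had it. Each thinning arm gave the same sign for all 663 genes that rose and for 2231 that fell, and 480 and 1809 of them were called in each arm alone. The genes were chosen on the mean change of both arms, so the agreement in sign is nearly fixed by that choice. The calls were 583 up (2.81%) and 2119 down (10.2%) within the 50% arm, and 767 up (3.69%) and 2467 down (11.9%) within the 75% arm.

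**Figure D2:**
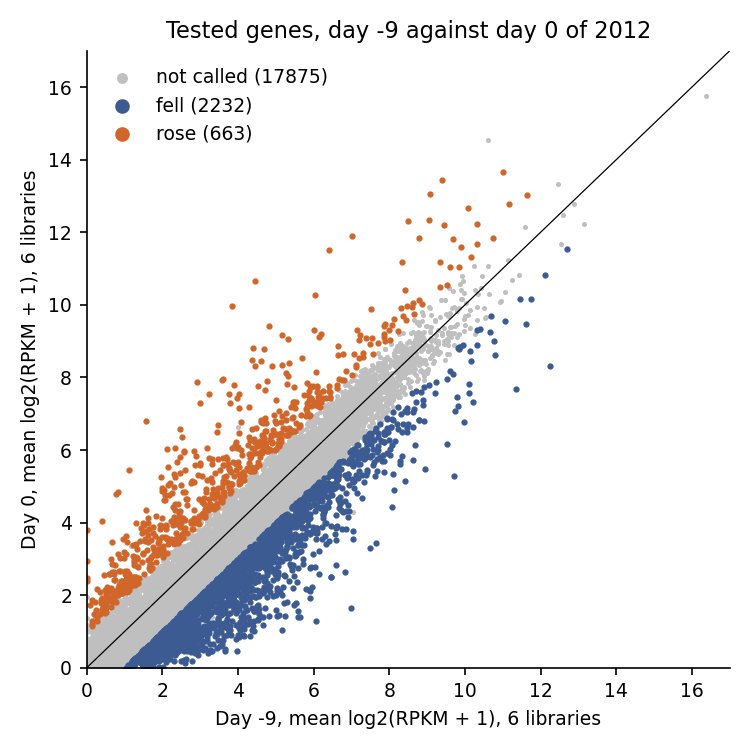
Mean log2(RPKM + 1) of 6 libraries on day -9 (x axis) and day 0 (y axis) for each of the 20770 tested genes; orange points rose, blue points fell, grey points were not called, and the line marks equal levels. The 2232 blue points form a broad band below the line, and the 663 orange points reach farther from it, above 6 on the log2 scale at their extreme.

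Fewer genes reached 1 RPKM at veraison. Genes at 1 RPKM or more numbered between 17079 and 17277 per library on day -9 (mean 17183 ± 73.1, SD, n = 6) and between 16021 and 16946 on day 0 (mean 16336 ± 334). The difference of -847 genes had an exact permutation p of 0.00216, and the highest count of day 0 belonged to replicate 2 of the 50% arm. These counts were made on RPKM as deposited and, like the split between rises and falls, can depend on scaling. Genes that rose took 5.55 ± 2.53% of the RPKM sum on day -9 and 20.3 ± 3.83% on day 0, while genes that fell went from 15.4 ± 1.86% to 5.06 ± 1.62% (SD, n = 6). These shares describe the genes chosen by this comparison and carry no test. In the libraries of other days the same risers held 3.93% on day -28, 29.7% on day 11 and 34.9% on day 21, and the fallers 19.9%, 3.13% and 2.71%.

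Among the genes without overlap between the days and with at least 5 RPKM on the higher day, VIT_11s0016g04920 on chromosome 11 rose most. Its lowest, median and highest RPKM were 0.790, 6.40 and 149 on day -9 and 424, 961 and 2264 on day 0. The change was 6.11 on the log2 scale (SE 0.57, limma adjusted p = 1.14e-18). Its mean was 5289 RPKM on day 11 and 10660 RPKM on day 21. On day -9 replicates 2 and 3 of the 50% arm held 127 and 149 RPKM, while the other 4 pools held at most 7.41 RPKM.

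VIT_12s0034g01970 on chromosome 12 followed the same course from a lower level. Its lowest, median and highest RPKM were 0.282, 0.649 and 10.9 on day -9 and 25.3, 154 and 251 on day 0, a change of 5.24 on the log2 scale (SE 0.44, limma adjusted p = 2.23e-21). Its mean was 1980 RPKM on day 21. The same 2 pools of the 50% arm stood apart on day -9, at 9.40 and 10.9 RPKM against at most 0.716 RPKM in the others.

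The steepest fall by the same rule was that of VIT_18s0122g00290 on chromosome 18. Its RPKM were 81.7, 125 and 193 (lowest, median and highest) on day -9 and 0.0775, 1.06 and 15.1 on day 0. The change was -5.35 on the log2 scale (SE 0.29, limma adjusted p = 1.85e-37), and the gene stayed low, with a mean of 0.0839 RPKM on day 21. On day 0 replicate 2 of the 50% arm and replicate 3 of the 75% arm still held 15.1 and 10.4 RPKM, and the other 4 pools held at most 1.37 RPKM.

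VIT_09s0002g00670 on chromosome 9 was similar, with 48.5, 66.5 and 94.5 RPKM on day -9 and 0.168, 0.622 and 12.1 RPKM on day 0 (-4.78 on the log2 scale, SE 0.28, limma adjusted p = 2.66e-34). Its highest day 0 value again came from replicate 2 of the 50% arm, at 12.1 RPKM.

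**Figure D3:**
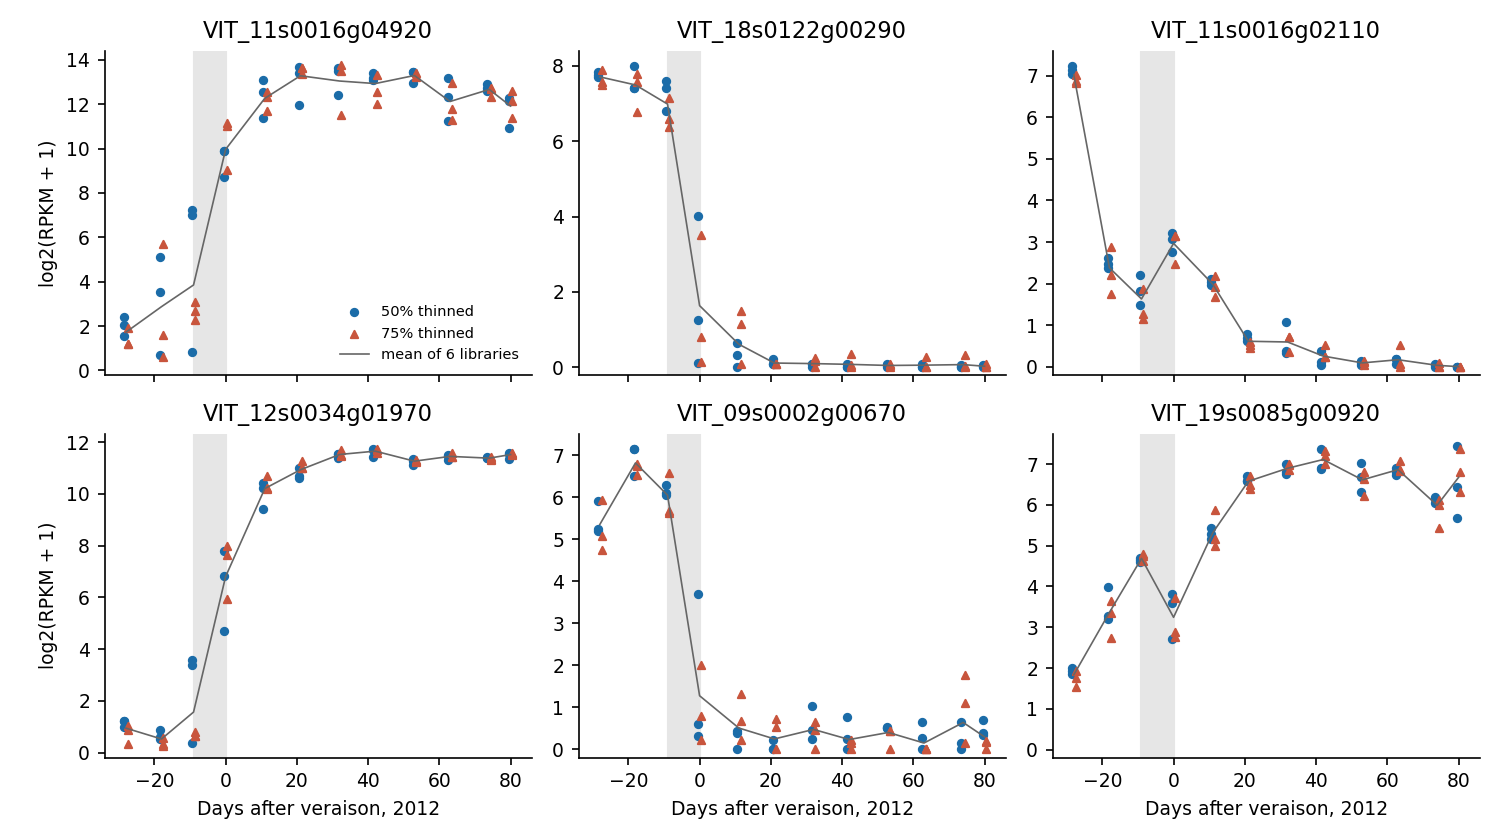
Level in log2(RPKM + 1) of 6 genes in every 2012 library against days after veraison; circles are the 50% arm, triangles the 75% arm, and the line joins means of 6 libraries. The left pair rose and stayed high, the middle pair fell and stayed low, VIT_11s0016g02110 rose from a mean of 2.20 RPKM to 6.95 RPKM and was low again later, and VIT_19s0085g00920 fell from 24.8 RPKM to 8.99 RPKM and was higher later.

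Complete switches were rare. No gene was under 1 RPKM in all 6 libraries of day -9 and at 5 RPKM or more in all 6 of day 0, and 3 genes went the other way. By group means, 18 of the genes that rose passed from under 1 RPKM to at least 5 RPKM, and 84 of those that fell passed from at least 5 RPKM to under 1 RPKM. VIT_00s0271g00060, whose ID carries no chromosome number, held 5.96, 8.51 and 36.1 RPKM (lowest, median and highest) on day -9 and 0.257, 0.451 and 0.893 RPKM on day 0 (-2.92 on the log2 scale, SE 0.27, limma adjusted p = 7.15e-19). In VIT_16s0100g00740 on chromosome 16 the values were 7.03, 10.6 and 12.6 RPKM and then 0, 0.538 and 0.983 RPKM (-2.88, SE 0.19, limma adjusted p = 2.90e-29). On day 80 its mean was 2.26 RPKM, and that of VIT_00s0271g00060 was 0.0243 RPKM.

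Rising genes varied more on day -9 than on day 0, and falling genes more on day 0, the days that also chose these genes. Over the 6 libraries of day -9 the genes that rose had a median SD of 0.54 on the log2 scale, against 0.16 for all tested genes, and 139 of the 663, 21.0%, had an SD above 1, against 1.37% of all tested genes. By day 0 their median SD was 0.32 and 12, 1.81%, exceeded 1, against 0.17 and 0.91% for all tested genes. For the genes that fell the median SD went from 0.22 to 0.36, and those above 1 from 15 to 59. These were 0.672% on day -9, below the share of all tested genes, and 2.64% on day 0, above it. Single pools set much of this spread. Replicate 3 of the 50% arm was the highest of the day -9 pools for 410 of the genes that rose, 61.8%, and for 10.6% of all tested genes. Replicate 1 of the 50% arm and replicate 3 of the 75% arm were the lowest for 287 and 279 of them, 43.3% and 42.1%, and for 19.6% and 12.2% of all tested genes. On day 0 replicate 2 of the 50% arm was the lowest pool for 436 of the genes that rose, 65.8%, and the highest for 1889 of the genes that fell, 84.6%, while it was the lowest for 13.7% and the highest for 40.3% of all tested genes. Without that library 724 genes rose and 2577 fell, and without replicate 1 of the 50% arm on day -9 the calls were 590 and 2156. The part of berry stage in this spread was not tested.

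Most of the change persisted in libraries that the comparison did not use. Days 11 and 21 were set against days -28 and -18, where 1321 of all tested genes, 6.36%, were called higher and 4620, 22.2%, lower by limma at the same thresholds. Of the 663 genes that rose at veraison 518, 78.1%, were higher on the later days, 15 were lower and 130 were called in neither direction. Of the 2232 genes that fell, 1943, 87.1%, were lower later, 10 were higher and 279 were called in neither direction. The median difference between the flanking days was 2.03 on the log2 scale for the genes that rose and -2.01 for those that fell, against -0.32 for all tested genes.

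Genes that rose peaked at several stages. The highest of the 12 day means of 2012 fell on day 0 itself for 197 of them, 29.7%, where 4.86% of all tested genes peaked. It fell on day 11 for 151 genes, 22.8%, where 3.33% of all tested genes peaked, and on day 21 for 62, 9.35%, against 2.23%. Day 74 held the peak of 90 genes that rose, 13.6%, and day -28 that of 33, 4.98%, both below the 22.0% and 24.6% of all tested genes. Their median level on the log2(RPKM + 1) scale was 2.51 on day -28, 2.53 on day -18, 3.36 on day -9, 5.16 on day 0, 5.31 on day 11 and 4.17 on day 80. Genes that fell were lowest on day 74 in 568 cases, 25.4%, and on day 80 in 438, 19.6%, where 14.7% and 11.5% of all tested genes were lowest. On day 0 199 of them, 8.92%, were lowest, near the 8.66% of all tested genes. Their median level was 4.13, 4.19, 3.95, 2.29, 1.93 and 1.45 on the same days. The levels of day -9 and day 0 in these courses chose the genes, and only the other days are independent of that choice.

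**Figure D4:**
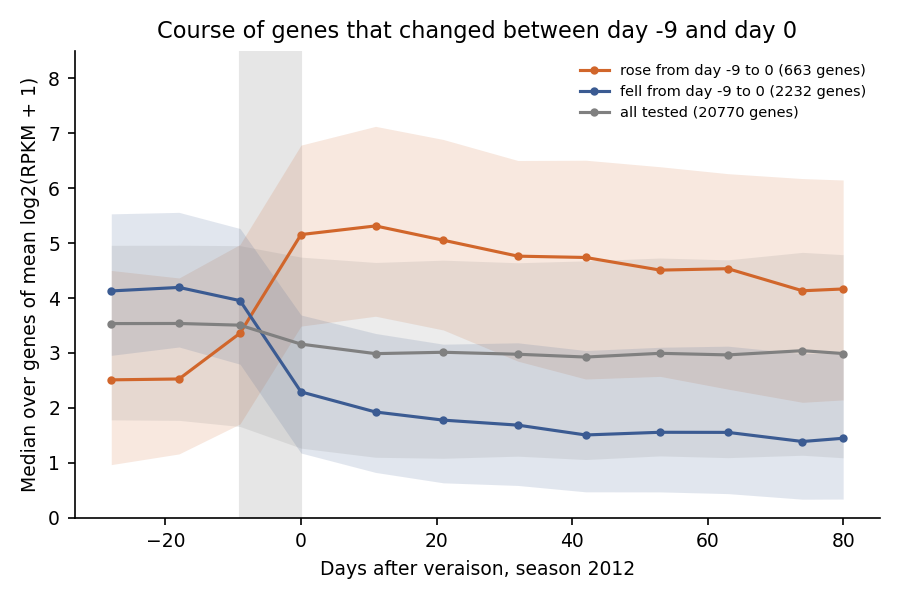
Median over genes of mean log2(RPKM + 1) on each sampling day of 2012 for genes that rose (orange), genes that fell (blue) and all tested genes (grey), with the middle 50 percent of genes as a band; the vertical grey band is the interval from day -9 to day 0. The orange line reaches 5.31 on day 11 and declines to 4.17 by day 80, and the blue line continues down to 1.45.

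VIT_06s0061g00550 on chromosome 6 was an example of a rise kept on the flanking days. It was nearly silent at 0.421 RPKM on day -28 and 1.15 RPKM on day -18. On day -9 it held 41.6, 713 and 1835 RPKM (lowest, median and highest) and on day 0 it held 3690, 5684 and 5877 RPKM (3.82 on the log2 scale, SE 0.56, limma adjusted p = 9.72e-10). The green pools spanned a wide range in this gene, and the pools of veraison were close together. VIT_05s0049g00760 on chromosome 5 rose from a mean of 1213 RPKM on day -9 to 8779 RPKM on day 0 (3.97, SE 0.40, limma adjusted p = 8.86e-17) and to 26420 RPKM on day 21.

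Falling genes that stayed low included some whose decline had begun weeks earlier. VIT_02s0154g00320 on chromosome 2 had means of 2576 RPKM on day -28, 427 RPKM on day -18, 37.6 RPKM on day -9 and 2.37 RPKM on day 0. The last step (-3.41 on the log2 scale, SE 0.20, limma adjusted p = 4.18e-33) thus continued a decline already under way between day -28 and day -18. VIT_03s0063g02360 on chromosome 3 went from 1615 to 829, 180 and 11.6 RPKM over the same days (-4.18 for the last step, SE 0.29, limma adjusted p = 9.04e-28).

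In 15 of the rising and 10 of the falling genes the flanking days differed in the opposite direction. VIT_11s0016g02110 on chromosome 11 had a mean of 130 RPKM on day -28 and 2.20 RPKM on day -9, rose to 6.95 RPKM on day 0 (1.34 on the log2 scale, SE 0.21, limma adjusted p = 8.48e-09) and was at 0.531 RPKM on day 21. VIT_08s0007g01300 on chromosome 8 held 13.4 RPKM on day -9, 33.1 RPKM on day 0 and 3.49 RPKM on day 21 (1.24, SE 0.16, limma adjusted p = 5.58e-12). In the other direction, VIT_19s0085g00920 on chromosome 19 was at 24.8 RPKM on day -9, 8.99 RPKM on day 0 and 94.9 RPKM on day 21 (-1.44, SE 0.16, limma adjusted p = 3.30e-14). VIT_02s0087g00910 on chromosome 2 fell from 5.87 to 1.14 RPKM (-1.81, SE 0.28, limma adjusted p = 5.11e-09). It was at 2.82 RPKM on day 11 and 19.2 RPKM on day 21, and at 162 RPKM on day 53, outside the flanking days.

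How far rising and falling genes had gone by each day was measured on genes chosen in the other seasons, 199 per direction, with each gene at 0% on its day -28 mean and at 100% on its day 21 mean. By day -18 falling genes were ahead in 6 of 6 libraries on both scales, having covered 7.26% against 2.31% of rising genes on the log2 scale and 25.7% against 0.117% on the linear RPKM scale (exact sign-flip permutation p = 0.0312 each, the smallest that 6 libraries allow). On the log2 scale the rising genes had covered 35.2 ± 23.1% by day -9 and 87.0 ± 7.66% by day 0, and the falling genes 23.3 ± 5.12% and 74.7 ± 14.0% (mean ± SD of 6 libraries). Rising genes were ahead in 3 of 6 libraries on day -9 (difference 11.9 points, exact sign-flip permutation p = 0.281) and in 6 of 6 on day 0 (12.3 points, exact permutation p = 0.0312). The order turned on the linear RPKM scale, where rising genes had covered 10.6% and falling genes 58.0% by day -9 and 64.5% and 95.3% by day 0, with falling genes ahead in all 6 libraries of both days (exact permutation p = 0.0312 each). The order on days -9 and 0 thus depended on the scale. Relative to log2, the linear scale always moves falling genes ahead, so its order on day -18 is no separate support. These p-values were not adjusted over days and scales. On the second sampling day of 2013, rising genes had covered 9.04% and falling genes 7.36% on the log2 scale (exact sign-flip permutation p = 0.5625). On that of 2014 they had covered 28.0% and 8.88% (exact sign-flip permutation p = 0.25).

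No difference between the thinning arms was detectable at the level of whole pools. The 75% arm minus the 50% arm was -0.53 in ripening score on day -9 (exact permutation p = 0.8) and 0.47 on day 0 (exact permutation p = 0.8). In sugar the differences were -0.357 g/100 ml on day -9 (exact permutation p = 0.4) and 1.00 g/100 ml on day 0 (exact permutation p = 0.7), and all 4 adjusted values were 0.8. With 3 against 3 libraries no p under 0.1 is possible, so these values do not show that the arms were the same.

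Gene by gene, the change from day -9 to day 0 differed between arms in 55 genes at a limma adjusted p under 0.05, of which 34 rose more, or fell less, in the 75% arm (0.164% of those tested) and 21 the reverse (0.101%). At an unadjusted p under 0.05 there were 1669. All 34 had a higher mean in the 50% arm than in the 75% arm on day -9, 33 had a lower one on day 0, and 20 of them were among the 663 genes that rose. The arm means of the 2 days make up the tested difference, so the selection largely fixes the first 2 of these counts. VIT_04s0079g00690 on chromosome 4 had the largest difference. Its day -9 values were 0.195, 118 and 177 RPKM in replicates 1 to 3 of the 50% arm and 0.358, 1.68 and 1.11 RPKM in the 75% arm. Its day 0 values were 263, 88.0 and 286 RPKM and then 166, 376 and 382 RPKM. On day -9 replicates 2 and 3 of the 50% arm were high and the other 4 pools low. The part of berry stage in this pattern was not tested. The difference in change was 4.51 on the log2 scale (SE 0.92, limma adjusted p = 0.00419).

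VIT_03s0063g01290 on chromosome 3 had the same pattern, with 0.132, 53.3 and 105 RPKM in the 50% arm and 0.169, 3.39 and 0.380 RPKM in the 75% arm on day -9 (difference in change 3.87, SE 0.85, limma adjusted p = 0.00933). The 2 genes named for the reverse direction differed by less. VIT_00s2341g00010, with no chromosome number in its ID, differed by -1.08 (limma adjusted p = 0.0414) and VIT_18s0076g00360 on chromosome 18 by -0.68 (limma adjusted p = 0.0486, and 0.062 with the replicate number as a block).

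The count of 55 rested on single pools. On day -9 it was 283 without replicate 1 of the 50% arm, 21 without replicate 2, 14 without replicate 3, 29 without replicate 1 of the 75% arm and 91 without its replicate 2. On day 0 it was 212 without replicate 1 of the 50% arm, 28 without replicate 2, 91 without replicate 1 of the 75% arm, 18 without its replicate 2 and 30 without its replicate 3. A fit to the 12 libraries alone called 3 genes, and in it VIT_04s0079g00690 had an adjusted p of 0.876. Both genes named for the larger rise in the 75% arm lost their call without replicate 2 or replicate 3 of the 50% arm on day -9 (limma adjusted p from 0.133 to 0.267) and without replicate 2 of that arm on day 0 (0.0518 and 0.0901). VIT_03s0063g01290 also lost it without replicate 1 of the 75% arm on day -9 (0.0727) and without replicate 2 (0.055) or 3 (0.0527) of that arm on day 0. The genes named for the reverse direction lost theirs without any of 6 libraries each, among them replicates 2 and 3 of the 50% arm on day -9.

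The same step was set beside the interval with the most changed genes in each other season, which was chosen from those counts. In 2013 this was day -13 to day -6, when the mean ripening score went from -2.82 to 1.80 and sugar from 0.532 to 2.61 g/100 ml. In 2014 it was day 0 to day 8, from 1.43 to 4.58 in score and from 3.04 to 11.7 g/100 ml. The 2012 interval went from -1.39 to 3.44 in score and from 1.24 to 7.57 g/100 ml, so its starting sugar was intermediate. Each season's score used genes chosen in the other seasons, so scores of different seasons are not on a common scale. Season, sampling spacing and the stage at the start cannot be told apart. The 3 intervals share no libraries. Their values also differed in form. Between 1 and 13 values per library were above 0 and under 0.01 RPKM in the 2014 interval, against 151 to 244 in 2012 and 52 to 227 in 2013. Of 9114 genes at 5 RPKM or more in every group mean of 2012, the 2014 libraries listed 36 to 50 under 0.5 RPKM, replicate 2 of the 75% arm on day -6 of 2013 listed 34, and the other libraries of the intervals at most 5. The form and the 2014 season cannot be told apart.

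In the 2013 interval 641 genes rose, 3.09%, and 1835 fell, 8.83%, by limma at the same thresholds. The 441 genes that rose in both made up 66.5% of the 2012 list and 68.8% of the 2013 list, and the 1246 that fell in both made up 55.8% and 67.9%. Opposite calls were made for 3 of the genes that rose in 2012 and 1 of those that fell. The 2012 risers had a median change of 1.35 on the log2 scale in 2013 and the fallers -1.08, against -0.13 for all tested genes, and 632 of 663 and 2202 of 2232 kept their sign. A direct test of the difference between the changes called 587 genes, 344 higher (1.66%) and 243 lower (1.17%) in 2013, or 626 without the library of day -6 whose values had the other form. Of the 2012 risers 62 rose less in 2013 and 41 rose more, and of the fallers 222 fell less and 24 fell more. The 2012 lists were chosen for a large 2012 change that also enters this difference, which favours smaller changes in the other season.

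Overlap with the 2014 interval was smaller among the rises. There 311 genes rose, 1.50%, and 1653 fell, 7.96%. The 179 genes that rose in both were 27.0% of the 2012 list and 57.6% of the 2014 list, and the 1090 that fell in both were 48.8% and 65.9%, with 6 and 2 opposite calls. The median change of the 2012 risers was 0.53 in 2014 and that of the fallers -0.98, against -0.22 for all tested genes. The direct test called 1145 genes, 497 higher (2.39%) and 648 lower (3.12%), and 342 of the 2012 risers rose less in 2014 while 1 rose more. Of the fallers 376 fell less and 3 fell more. Choice by the 2012 change favours these directions here too, so the splits cannot be read as a season difference alone. Across all 3 intervals 124 genes rose and 686 fell, and 167 rose and 582 fell in 2012 but passed the thresholds in neither other interval.

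**Figure D5:**
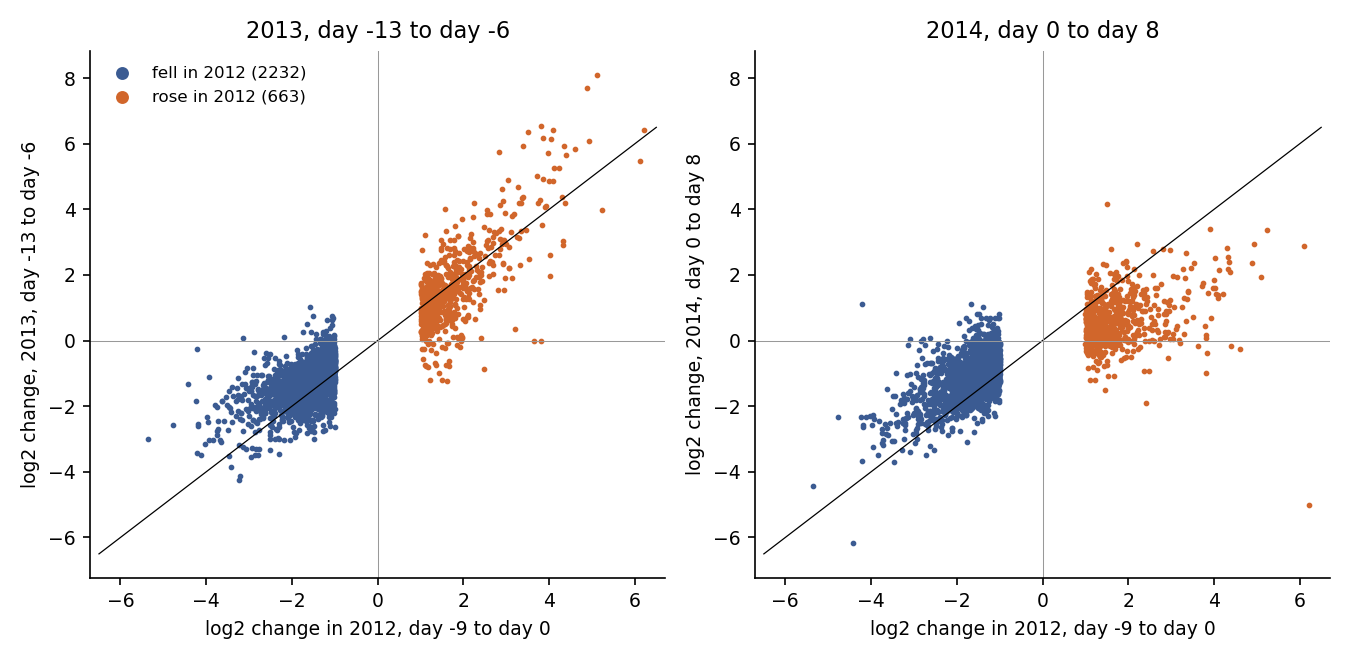
Change on the log2 scale in the 2013 interval (left) and the 2014 interval (right) against the change from day -9 to day 0 of 2012, for the 663 genes that rose (orange) and the 2232 that fell (blue) in 2012; the diagonal marks equal changes. The orange points scatter around the diagonal in 2013, with a median of 1.35, and mostly lie below it in 2014, with a median of 0.53. The genes were chosen by their 2012 change, which favours a smaller change in the other seasons.

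Single genes showed how the seasons differed. VIT_00s1682g00020, with no chromosome number in its ID, fell from a mean of 20.9 ± 3.60 RPKM to 1.60 ± 1.09 RPKM in 2012 (SD, n = 6) after climbing from 0.899 RPKM on day -28. It stayed near 1.42 and 1.57 RPKM in the 2013 interval and near 0.695 and 0.559 RPKM in that of 2014. Its change in 2013 was 3.21 higher (SE 0.21, limma adjusted p = 4.67e-28) and in 2014 3.02 higher (SE 0.21, limma adjusted p = 8.52e-26) than in 2012. VIT_02s0025g04330 on chromosome 2 rose in each interval, from a mean of 338 to 3097 RPKM in 2012, 7.32 to 1902 RPKM in 2013 and 1444 to 4466 RPKM in 2014, and its rise of 2013 was larger by 3.00 (SE 0.73, limma adjusted p = 0.000689).

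VIT_12s0034g01880 on chromosome 12 was listed at 0 in all 12 libraries of the 2013 interval. In 2012 it rose from a mean of 0.464 RPKM, with 4 of 6 libraries at 0, to 19.2 RPKM (difference of 2013 from 2012 -3.64, SE 0.39, limma adjusted p = 1.59e-13). In the 2014 interval its mean was 0.147 RPKM on day 0 and 0 RPKM on day 8 (difference of 2014 from 2012 -3.81, SE 0.39, limma adjusted p = 7.52e-15). Since a listed 0 can be a failed estimate, these differences may not be differences in level. VIT_04s0008g01520 on chromosome 4 rose from 13.5 to 132 RPKM in 2012 and went from 60.3 to 80.1 RPKM in 2013 (difference -2.85, SE 0.73, limma adjusted p = 0.00137).

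VIT_05s0077g01650 on chromosome 5 fell from 25.5 to 2.69 RPKM in 2012, whereas in 2014 it was already at 2.47 RPKM on day 0 and at 2.69 RPKM on day 8 (difference 3.12, SE 0.76, limma adjusted p = 0.000501). The neighbouring IDs VIT_17s0000g09810 and VIT_17s0000g09800 on chromosome 17 had the largest shortfall of 2014. The first rose from a mean of 101 to 706 RPKM in 2012 and from 11.5 to 455 RPKM in 2013, but went from 552 to 431 RPKM in 2014 (difference of 2014 from 2012 -4.85, SE 0.74, limma adjusted p = 3.10e-08). The second rose from 72.3 to 459 RPKM in 2012 and went from 456 to 382 RPKM in 2014 (difference -4.57, SE 0.76, limma adjusted p = 3.49e-07). Both were thus already high at the start of the 2014 interval.

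Called genes were spread over the chromosomes named in the IDs. The share of tested genes that rose ran from 2.04% on chromosome 7 to 5.37% on chromosome 2 (43 of 801 genes), and the share that fell from 9.35% on chromosome 11 to 12.7% on chromosome 18 (200 of 1574 genes), leaving aside unplaced IDs. Some changed genes were neighbours in ID order. Of the genes that rose 162, 24.4%, stood in 66 runs of at least 2 adjacent tested IDs that all rose, 20 of these runs holding 3 or more. Of the genes that fell 680, 30.5%, stood in 292 runs, 65 of them of 3 or more. The share that position alone would give was not computed. It is larger for falls, at 10.7% of tested genes, than for rises, at 3.19%, so the 2 shares in runs cannot be compared. The longest rising run held 5 IDs from VIT_19s0090g01340 to VIT_19s0090g01380, with changes from 1.03 to 3.06 on the log2 scale. Its first member held 67.0 to 94.0 RPKM in the 75% arm and 580 to 733 RPKM in the 50% arm on day -9. On day 0 these were 333 to 1302 RPKM and 466 to 892 RPKM. Within the 75% arm it changed by 3.06 (limma adjusted p = 6.00e-07), and within the 50% arm by 0.09 (limma adjusted p = 0.922). The last member of the run changed by 1.36 (limma adjusted p = 0.00496) and 0.71 (limma adjusted p = 0.171) in these arms. Over both arms this last member was under 2-fold (0.83 to 0.99) without replicate 1 of the 50% arm or replicate 3 of the 75% arm on day -9, and without replicate 3 of the 50% arm or replicate 2 of the 75% arm on day 0. The longest falling runs held 6 IDs, such as that from VIT_00s0480g00030 to VIT_00s0480g00100, with changes from -1.99 to -1.04. Both end members of this run were under 2-fold after median ratio scaling (-0.89 and -0.95), after quantile normalization (-0.65 and -0.73) and without replicate 3 of the 75% arm on day -9 (-0.95 each). The first was so too without replicate 3 of the 50% arm on day -9 and without replicate 1 of either arm on day 0 (-0.998 to -0.916). No source used here states how reads shared by near-identical neighbours were split, so values of adjacent similar genes may not be independent.

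The most abundant transcript of both days was VIT_19s0014g02740 on chromosome 19. Its mean was 84900 ± 9932 RPKM on day -9, 9.27% of the RPKM sum, and 55090 ± 6191 RPKM on day 0, 6.03% (SD, n = 6; -0.62 on the log2 scale, SE 0.14, limma adjusted p = 3.84e-05), a fall of under 2-fold. VIT_05s0020g01170 on chromosome 5, next on day -9, went from 9069 to 4926 RPKM (-0.91, SE 0.11, limma adjusted p = 1.73e-12), and its change was -1.02 without replicate 2 of the 50% arm on day 0 and -2.47 after quantile normalization. VIT_05s0049g00520 on chromosome 5, next on day 0, had means of 3996 ± 4554 RPKM and 24320 ± 5363 RPKM. No pool of day -9, at 207 to 11300 RPKM, reached the lowest of day 0, at 16760 RPKM. Its change of 3.94 was not called (SE 2.80, limma adjusted p = 0.216) in the fit that shares its spread with all days, and in a fit to the 12 libraries its adjusted p was 0.00733. On day 21 it was listed at 0 in 4 libraries and at 51280 and 52970 RPKM in the others.

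Other IDs also had listed zeros beside high values. VIT_08s0007g04500 on chromosome 8 was listed at 0 in 10 of the 12 libraries and at 435 RPKM in replicate 3 of the 75% arm on day -9 and 318 RPKM in replicate 1 of the 75% arm on day 0. VIT_04s0008g04680 on chromosome 4 was listed at 0 in 11 libraries and at 86.5 RPKM in replicate 2 of the 75% arm on day 0. Among genes averaging at least 5 RPKM on day 0, they had the widest spread within the groups of that day. Genes with a listed 0 while both replicates held at least 5 RPKM were left out of this ranking. The changes of these 2 IDs between the days are not interpretable.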

How the data were processed

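The authors deposited RPKM per gene ID, made with TopHat2 2.0.6 and Cufflinks 2.0.2 per the submitters' processing notes (settings, build and annotation: not given in the sources used here). Libraries were not strand-specific, per the labels' protocols, so overlapping genes on opposite strands cannot be told apart by their reads. Whole reads could not be recovered from the low values, so the depth is unknown and no counting interval was computed.

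Season, day, thinning and replicate came from the titles and source names, and sugar from the labels. The test took genes reaching 1 RPKM in 3 or more libraries of the series. It was run on log2(RPKM + 1), which understates changes of genes near 1 RPKM, with limma 3.58.1 (R 4.3.3): 1 mean for each of 68 combinations of season, day and thinning, 3 libraries each, a trended prior, Benjamini-Hochberg adjustment and thresholds of adjusted p under 0.05 and 2-fold, except for the difference between arms, where size was not limited. The fit was checked on simulated data. Library values were tested with exact permutation (Python 3.11.15, numpy 2.4.6, scipy 1.17.1). Alternatives changed scaling, pseudocount, filter, replicate block, the libraries fitted and single libraries.

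None of the 29971 IDs matched a name in the reference gene table, so the gene lists and seed markers gave no value. Named IDs are the first 2 per direction and comparison, ranked by size among genes without overlap of the days (for arms and seasons, in the arm or season with the larger change), with at least 5 RPKM and no listed 0 beside replicates of at least 5 RPKM; genes named for spread or abundance are ranked by that measure. The libraries, intervals and rules were chosen with earlier results of these data known. The count of pools in which a gene was highest or lowest was added after seeing the values.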

Additional observations from a re-analysis of the deposited data

Results flagged for a closer look

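A single library stood far from the others of its day in 7 of the 64 groups of 6 libraries that were examined. Chance gives about 1 in 20, but 3 of the 7 belong to genes that were named for their wide spread, so the 7 cannot be read against it. Sugar of 10.33 g/100 ml in replicate 2 of the 75% arm was the highest of day 0, the next being 7.45 g/100 ml, and that pool also had the highest ripening score of the day. The genes that fell held 8.09% of the RPKM sum in replicate 2 of the 50% arm on day 0, against at most 5.13% in the other pools. VIT_00s0271g00060 was at 36.1 RPKM in replicate 3 of the 75% arm on day -9, and VIT_02s0154g00320 at 6.40 RPKM in replicate 2 of the 50% arm on day 0. VIT_08s0007g04500 was listed at 435 RPKM in a single library of day -9 and at 318 RPKM in a single library of day 0, and VIT_04s0008g04680 at 86.5 RPKM in a single library of day 0, with 0 in all other libraries of those days.

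The change from day -9 to day 0 differed between thinning arms in 55 genes, between 2013 and 2012 in 587 genes and between 2014 and 2012 in 1145 genes, each by limma's test of the difference itself.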

How the results depend on the processing

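The counts of genes that rose and fell were 663 and 2232 as reported. They were 1016 and 1359 after quantile normalization and 1028 and 3540 with a pseudocount of 0.1 RPKM. The genes that fell and were lower on the flanking days numbered 1132 under the first of these settings and 3095 under the second. With a pseudocount of 0.1 RPKM the season differences were 1118 genes for 2013 and 1901 for 2014. Leaving out 1 library at a time gave 590 to 724 rises, 1979 to 2577 falls, 14 to 283 differences between arms, 516 to 753 and 956 to 1338 season differences, and a score difference of 4.56 to 5.16. Differences between arms numbered 116 with no filter and 3 in the fit to 12 libraries. With 50 genes per direction the score difference was 6.50. Rising minus falling progress turned to -47.5 points on day -9 and -30.8 points on day 0 on the linear scale, an alternative chosen after seeing the data. VIT_08s0007g04500 (-0.08 as reported) changed by 0.62 without replicate 2 or 3 of the 75% arm on day 0, by -1.46 without its replicate 1 and by 1.39 without replicate 3 of the 75% arm on day -9. VIT_04s0008g04680 (1.07 as reported) changed by 0 without replicate 2 of the 75% arm on day 0 and by 1.61 without replicate 1 or 3. The causes were not tested. Named genes gave 564 values with the same call and sign as reported, 41 that lost the call, 5 that gained it and 4 that changed sign or came to 0.

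Whether replicate numbers pair the pools could not be settled. Same-numbered deviations from the group means across genes correlated at -0.19, -0.07 and 0.19 in the 50% arm and -0.06, 0.17 and 0.15 in the 75% arm. Differently numbered ones correlated at -0.307 to 0.305 in the 50% arm and -0.189 to 0.0505 in the 75% arm. Deviations from means of 3 libraries are too few to exclude a pairing. With the number as a replicate block 664 genes rose, 2232 fell and 64 differed between arms.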
